A study of Mus musculus with 6 samples.

Results

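The genes described here encode the synaptic vesicle and release machinery, the proteins that fill, dock, prime, fuse and retrieve the vesicles of nerve terminals. A list of 52 gene symbols of known presynaptic function defined the set, and all 52 are among the 32531 gene symbols in the count files. Each was compared between RNA captured with ribosomes carrying an EGFP tag (IP, n = 3) and the RNA labelled input (n = 3), both from the cerebral cortex of adult mice of the line Htr4-EGFP/Rpl10a (ES1299), without treatment. All libraries of both groups therefore carry the same transgene, in which the ribosomal protein Rpl10a is fused to EGFP and produced under control of Htr4, a serotonin receptor gene. The labels give no strain background, exact age or number of animals, and do not say whether the replicates came from separate animals, so the p-values measure only the spread between these libraries, which may be technical. An IP from tissue without the tag was not analysed here.

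At the terminal, the vesicle protein synaptobrevin (Vamp) pairs with syntaxin and Snap25 on the plasma membrane into a SNARE complex that pulls the membranes together, and synaptotagmins couple this step to calcium entry. The active zone, a protein scaffold of Bassoon, Piccolo, RIM, Munc13 and ELKS proteins, holds vesicles near the calcium channels and primes them. Most of these proteins come from small gene families whose members differ between neuron types, so that the paralogs a neuron expresses are part of its identity. The mRNAs are translated mainly in the cell body, so tagged-ribosome RNA does not report the composition of terminals. It gives the level of captured mRNA and not the rate of translation, and RNA from untagged cells in the IP was not measured.

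Gene reads numbered 37696125 to 52360452 in the input libraries and 53147173 to 67559533 in the IP libraries, and the least covered of the 52 genes had 222 reads in a library. Levels are CPM, reads scaled to a common library size with TMM (trimmed-mean) factors. Htr4 had 8.17, 7.65 and 7.82 CPM in the inputs and 18.6, 22.6 and 18.4 in the IPs. Rpl10a, the gene fused to EGFP in the transgene, had 1.44, 2.62 and 1.80 CPM in the inputs and 0.807, 0.817 and 0.996 in the IPs. This difference did not pass (adjusted p = 0.066, edgeR quasi-likelihood test). Whether these few reads reflect the transcript of the transgene was not tested. Markers of other cells moved between the groups. All 8 astrocyte, 8 oligodendrocyte, 5 oligodendrocyte precursor and 7 microglia markers and all 6 tested endothelial markers fell, with summed levels of 3882 to 4478 CPM in the inputs and 812 to 995 in IP for the astrocyte list. All 8 markers of striatal projection neurons rose, from a summed 398 to 470 CPM to 1201 to 1643. Of 7 hippocampal markers 5 rose (summed 111 to 179 and 219 to 403 CPM), and of 6 thalamic markers 2 rose and 3 fell (370 to 422 and 289 to 368 CPM). Of the excitatory markers 2 of 6 rose and 4 did not pass, with log2 fold changes from -0.27 to 1.22. Slc17a7, which defines cortical excitatory neurons, had 434 ± 45.2 CPM in the inputs and 549 ± 99.4 in the IPs. Of the GABAergic markers 3 of 8 rose and 5 did not pass, with log2 fold changes from -0.24 to 3.34. Gad1 had 173 ± 16.3 and 187 ± 24.5 CPM. In such bulk libraries, fewer cells of a type and less RNA per cell cannot be told apart, and the part that these cell markers have in the results below was not tested.

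Of the 52 genes, 27 rose in IP and 8 fell, where 21.3% of all tested genes rose and 23.4% fell (44.8% in either direction). The other 17 did not pass. The threshold was an adjusted p of 0.05 in the quasi-likelihood test of edgeR, with the adjustment of Benjamini and Hochberg over all 16506 tested genes. Among the tested genes with a mean of at least 5 CPM, 31.9% rose and 19.9% fell. The median log2 fold change (IP over input) was 0.36 for the 52 genes and -0.02 for all tested genes. Every IP library lay above every input for 27 of the 52 genes and below for 9, against 26.5% and 29.5% of all tested genes. Over the whole set the groups did not overlap at 36 of 52 genes, against 56.1% of all tested genes. Within the 3 sequencing lanes the direction was shared for 45 of the 52 genes, against 68.7% of all tested genes. Without input replicate 3 the number that fell was 4, where 18.3% of all tested genes fell, and with the replicate number as a block 29 rose and 10 fell, where 21.9% and 24.0% of all tested genes did. Together the 52 genes took 3.51%, 3.50% and 3.66% of gene reads in the inputs and 4.98%, 4.95% and 5.14% in the IPs. Snap25 alone took 1.67%, 1.59% and 1.77% in the inputs and 2.53%, 2.42% and 2.57% in the IPs.

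**Figure D1:**
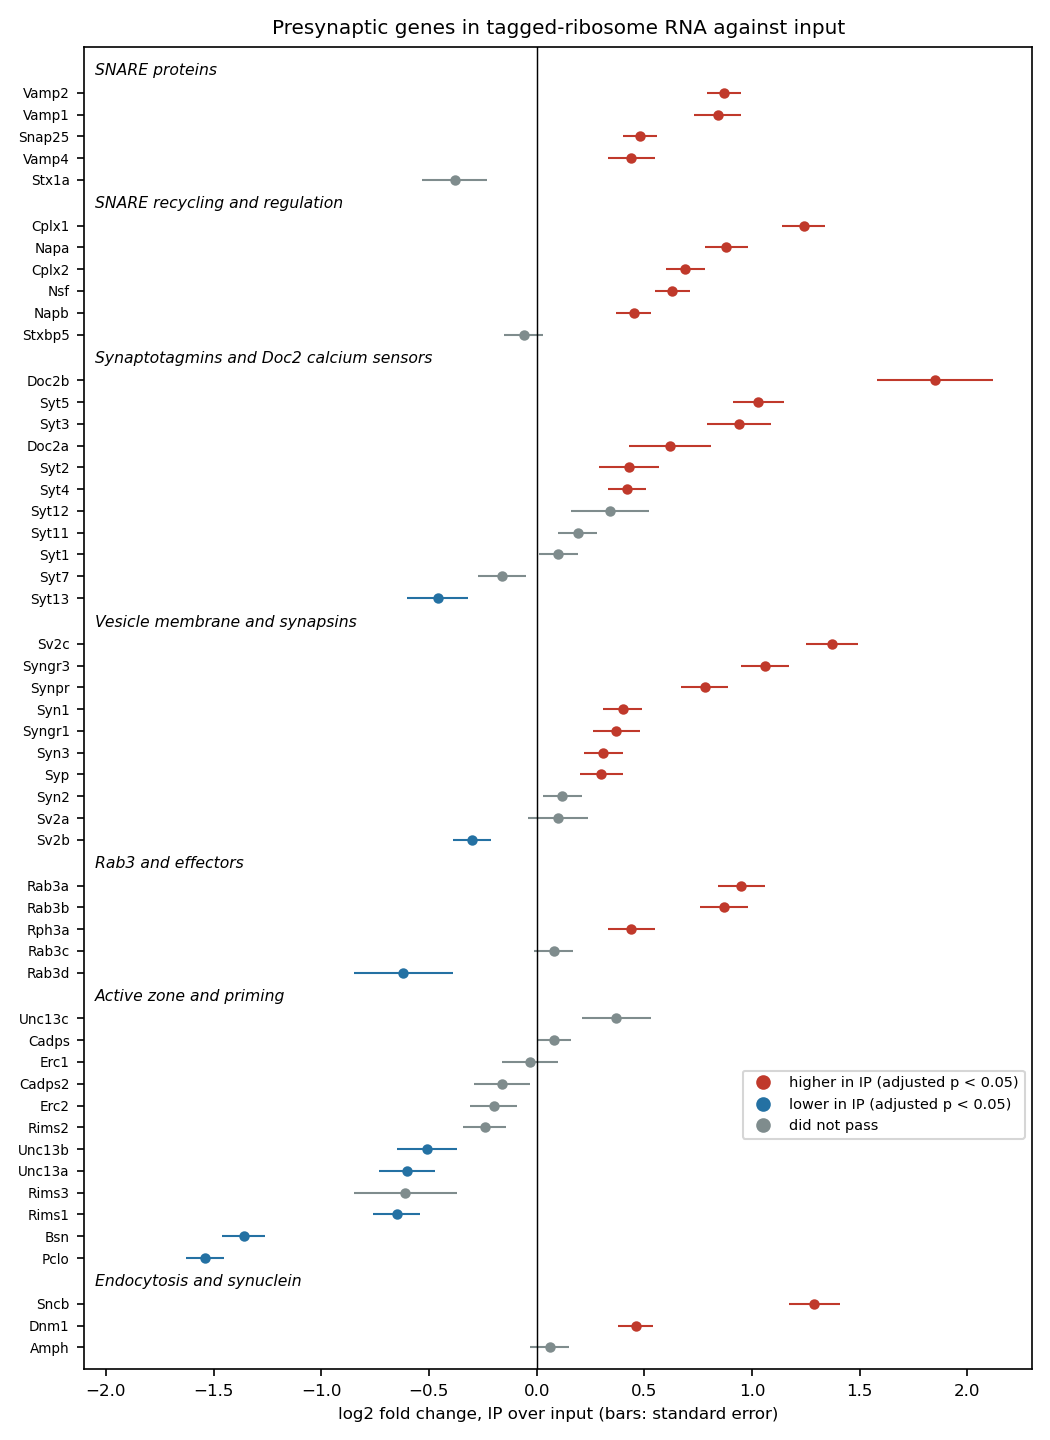
Log2 fold change (IP over input) of the 52 genes, grouped by role, with the standard error as a bar and colour for the call of the edgeR quasi-likelihood test. Bsn (-1.36) and Pclo (-1.54) lie farthest to the left, while Doc2b (1.85), Sv2c (1.37), Sncb (1.29) and Cplx1 (1.24) lie farthest to the right.

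Promoter sequence is given for 3 genes that rose and the pair that fell most, as the stretch of 250 bases before the annotated start, from the RefSeq promoter table (GRCm38.p6), 5′ to 3′ on the strand of the gene. Cplx1, Sncb and Syn1 rose in IP (Syn1 not with the length and GC offset), and Bsn and Pclo fell most. Capitals mark exact matches, on either strand, to 4 motifs: the GC box GGGCGG bound by Sp factors, the full cAMP response element TGACGTCA, TTCAGCACC from the left part of the site of the neuronal gene repressor REST, and the palindromic site of NRF1. A GC box on the opposite strand reads ccgccc. The motifs overlap one another in none of the 5 stretches.
Cplx1 (chr5:108550028-108550277, minus strand): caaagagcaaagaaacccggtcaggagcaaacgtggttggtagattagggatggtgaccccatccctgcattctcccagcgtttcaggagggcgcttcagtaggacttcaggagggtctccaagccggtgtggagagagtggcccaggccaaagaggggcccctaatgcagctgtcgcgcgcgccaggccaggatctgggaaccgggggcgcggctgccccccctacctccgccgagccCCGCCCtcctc
Sncb (chr13:54766596-54766845, minus strand): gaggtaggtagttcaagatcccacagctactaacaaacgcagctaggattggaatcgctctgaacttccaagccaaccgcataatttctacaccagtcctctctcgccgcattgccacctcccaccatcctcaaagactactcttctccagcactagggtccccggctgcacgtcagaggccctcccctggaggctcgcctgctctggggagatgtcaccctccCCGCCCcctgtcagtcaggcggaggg
Syn1 (chrX:20920919-20921168, minus strand): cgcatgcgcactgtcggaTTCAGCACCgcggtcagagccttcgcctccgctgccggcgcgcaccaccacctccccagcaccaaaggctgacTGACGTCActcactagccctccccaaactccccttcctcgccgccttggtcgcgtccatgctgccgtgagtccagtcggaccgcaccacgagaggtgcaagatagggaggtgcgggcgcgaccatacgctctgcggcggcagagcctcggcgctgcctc
Bsn (chr9:108190384-108190633, minus strand): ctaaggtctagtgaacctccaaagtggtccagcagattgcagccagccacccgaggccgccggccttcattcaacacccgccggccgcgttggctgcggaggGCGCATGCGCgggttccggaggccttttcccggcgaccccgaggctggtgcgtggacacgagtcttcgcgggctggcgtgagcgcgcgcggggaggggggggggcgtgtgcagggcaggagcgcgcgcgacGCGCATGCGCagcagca
Pclo (chr5:14514668-14514917, plus strand): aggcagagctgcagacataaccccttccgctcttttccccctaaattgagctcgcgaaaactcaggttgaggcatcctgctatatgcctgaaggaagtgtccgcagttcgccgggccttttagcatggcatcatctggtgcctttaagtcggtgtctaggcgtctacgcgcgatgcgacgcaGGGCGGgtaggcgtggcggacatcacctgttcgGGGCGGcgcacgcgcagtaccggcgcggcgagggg
The Syn1 stretch held the cAMP response element and the REST motif, Bsn held 2 NRF1 sites, Pclo 2 GC boxes and Cplx1 and Sncb 1 GC box each. Windows were found for 40 of the 52 genes (51 windows, since some genes have several starts). A GC box was in 58.8% of those windows and in 32.7% of all 32851 windows of this length, which also cover noncoding genes. The cAMP response element was in 1 of the 51 windows (1.96%) and in 1.55% of all windows. The REST motif was in 1 (1.96%) and in 0.301% of all, and both single matches are the Syn1 window. The NRF1 site was in 2 (3.92%) and in 0.782% of all. Such shares rest on 1 or 2 windows, and enrichment was not tested. These are matches of letters, and no measurement here bears on binding.

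Genes of the core SNARE complex rose, with syntaxin 1A as the exception. Of 5 SNARE genes, 4 rose, where 21.3% of all tested genes did, and 31.9% of those with a mean of at least 5 CPM. Snap25, which supplies a pair of helices of the complex from the plasma membrane, was the most abundant gene of the set. It had 17166, 15966 and 18991 CPM in the inputs and 24078, 23481 and 25241 in the IPs, a rise of 1.40-fold (log2 fold change 0.48, SE 0.08, adjusted p = 0.00049). The IP values spanned a narrow range well above the inputs. Vamp2, the main forebrain synaptobrevin, had 1887, 1834 and 2084 CPM in the inputs and 3496, 3343 and 3759 in the IPs (log2 fold change 0.87, SE 0.08, adjusted p = 9.8e-06). Its paralog Vamp1, which predominates in spinal cord and in some fast-spiking neurons, rose by nearly the same factor, from 130 ± 5.27 to 233 ± 35.1 CPM (0.84, adjusted p = 9.5e-05). Vamp4, a SNARE of endosomal and bulk-retrieved vesicles, rose from 111 ± 12.9 to 151 ± 14.6 CPM (0.44, adjusted p = 0.0065). Stx1a, the plasma membrane syntaxin, had 70.2, 69.2 and 75.5 CPM in the inputs and 49.6, 46.0 and 69.9 in the IPs (log2 fold change -0.38, adjusted p = 0.054). IP replicate 3 lay within the input range, and without it the log2 fold change was -0.58 (adjusted p = 0.0018). With the replicate block Stx1a passed (adjusted p = 0.014).

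Of 6 genes that act on SNARE complexes, 5 rose, where 21.3% of all tested genes did, and 31.9% of those with a mean of at least 5 CPM. The 6 include the chaperones that take the complexes apart after fusion and the complexins Cplx1 and Cplx2 that clamp them before it. The ATPase gene Nsf rose from 767 ± 46.4 to 1190 ± 60.3 CPM (log2 fold change 0.63, adjusted p = 8.8e-05). Its adaptors, alpha-SNAP (Napa) and the brain-specific beta-SNAP (Napb), rose from 59.1 ± 3.37 to 109 ± 9.12 and from 1283 ± 83.5 to 1751 ± 101 CPM. Per kilobase of exon Napb exceeded Napa 11.6-fold in the inputs and 8.62-fold in the IPs. Cplx1 had 548, 549 and 553 CPM in the inputs and 1165, 1233 and 1501 in the IPs (log2 fold change 1.24, SE 0.10, adjusted p = 2.6e-06). The inputs were nearly equal, and the IPs all lay at more than 2-fold the input level. Cplx2 rose from 1287 ± 30.3 to 2083 ± 222 CPM (0.69, adjusted p = 8e-05). Cplx3, a complexin outside the set that was chosen after its values were seen, fell from 10.9, 9.7 and 10.9 CPM to 2.92, 2.31 and 6.77 (-1.39, adjusted p = 0.0065). Stxbp5 (tomosyn), which competes with synaptobrevin for syntaxin, had 297 ± 27.2 and 284 ± 20 CPM (-0.06, adjusted p = 0.63).

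Of the 11 synaptotagmin and Doc2 genes, 6 rose, 1 fell and 4 did not pass. Among all tested genes 21.3% rose and 23.4% fell, and among those with a mean of at least 5 CPM 31.9% and 19.9% did. Syt1, the fast sensor of most forebrain synapses and the most abundant synaptotagmin here, had 1716, 1826 and 2037 CPM in the inputs and 1791, 2016 and 2163 in the IPs (log2 fold change 0.10, SE 0.09, adjusted p = 0.43). The groups overlapped. Syt5 rose from 60.5 ± 1.67 to 123 ± 20.8 CPM (1.03, adjusted p = 3.9e-05), Syt3, a high-affinity isoform, from 17.9 ± 0.662 to 34.4 ± 6.78 (0.94, adjusted p = 0.00048) and Syt4, which lacks normal calcium binding in its first C2 domain, from 263 ± 11.1 to 353 ± 25.7 (0.42, adjusted p = 0.0019). Syt2, the fast sensor of hindbrain synapses and of fast-spiking interneurons, had 22.2, 29.5 and 25.6 CPM in the inputs and 37.3, 31.5 and 35.8 in the IPs (0.43, adjusted p = 0.024). The parvalbumin gene Pvalb, a marker of those interneurons, had 21.8 ± 4.54 and 22.3 ± 5.52 CPM (adjusted p = 0.91). It is 1 of the 8 GABAergic markers, of which 3 rose and 5 did not pass. The part of such neurons in the Syt2 values was not tested. The Syt2 call was lost without input replicate 1 (adjusted p = 0.078), input replicate 3 (adjusted p = 0.06) or IP replicate 1 (adjusted p = 0.063).

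Syt13, a synaptotagmin that binds no calcium, was the only one of the 9 synaptotagmins that fell, from 147, 166 and 164 CPM to 92.5, 111 and 143 (log2 fold change -0.46, adjusted p = 0.017). IP replicate 3 came close to the inputs. The call was lost without input replicate 2 (adjusted p = 0.06), input replicate 3 (adjusted p = 0.068) or IP replicate 1 (adjusted p = 0.054). Syt7, the sensor of asynchronous release and facilitation, had 365 ± 38.9 and 327 ± 42.8 CPM (-0.16, adjusted p = 0.29). Syt11 had 429 ± 29.7 and 490 ± 45.8 CPM (0.19, adjusted p = 0.12, 0.049 with the replicate block and 0.042 without IP replicate 1), and Syt12 10.4 ± 1.34 and 13.2 ± 1.99 (adjusted p = 0.15).

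Doc2b, a high-affinity sensor linked to spontaneous release, showed the highest fold change of the 52 genes. It had 21.6, 23.8 and 16.2 CPM in the inputs and 91.9, 91.1 and 39.5 in the IPs (log2 fold change 1.85, SE 0.27, adjusted p = 0.00023). IP replicate 3 lay well below the other IPs and still above all inputs, and its lane also had the lowest input. Within lanes 1 to 3 the log2 fold change was 2.06, 1.91 and 1.26. Doc2a rose from 7.74 ± 1.02 to 11.9 ± 1.20 CPM (0.62, adjusted p = 0.018), but not without input replicate 1 (adjusted p = 0.059). Of the exonic bases of Doc2a, 39.4% overlap Ino80e on the opposite strand. The strand setting of the counting is not given, so reads of the 2 genes may not be separated. Exonic overlap with another gene was 17.2% for Syt12, 14.5% for Syt4, 11.8% for Erc1 and 9.00% for Rab3b.

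**Figure D2:**
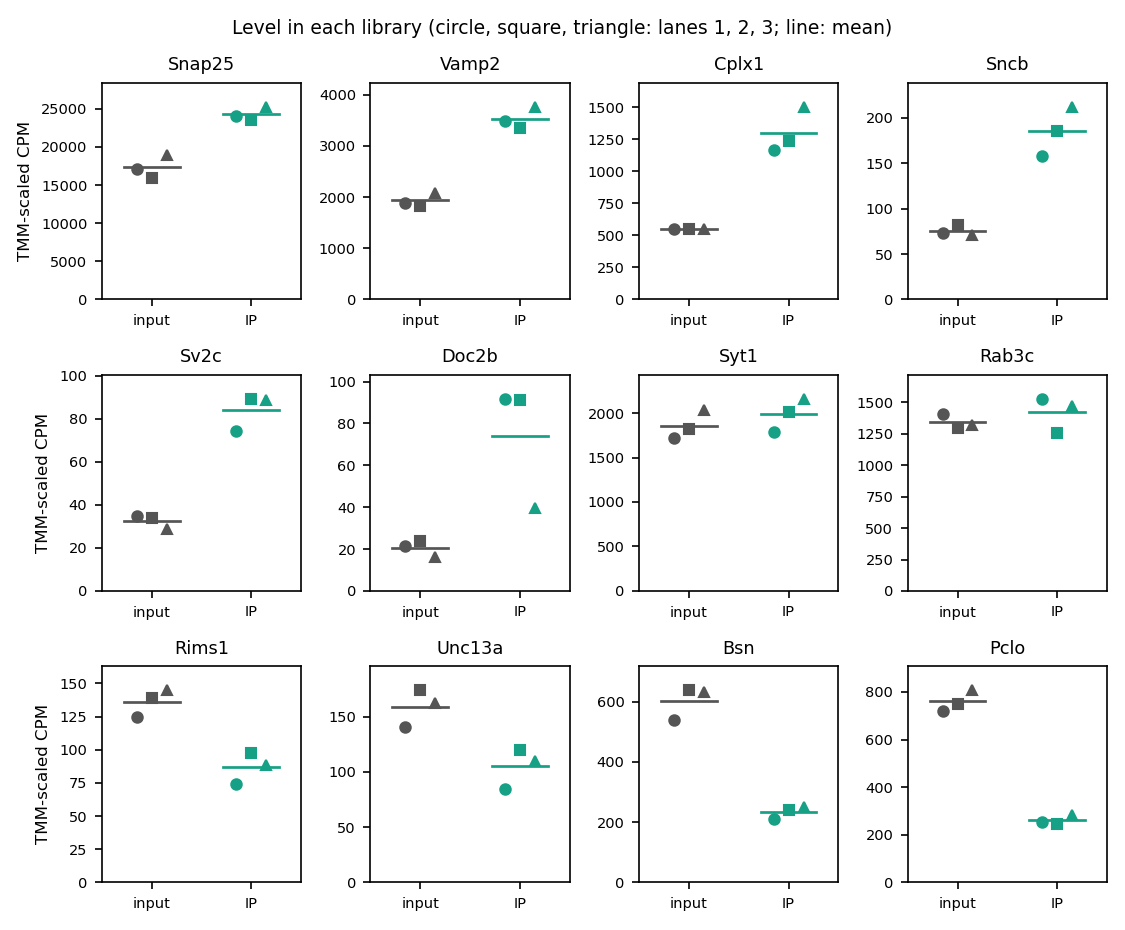
TMM-scaled CPM of 12 genes in each library, with the lane as symbol, the group on the x axis, the group mean as a line and every y axis starting at 0. Snap25, Vamp2, Cplx1, Sncb, Sv2c and Doc2b lie higher in all 3 IPs than in any input, Rims1, Unc13a, Bsn and Pclo lower, and the groups overlap for Syt1 and Rab3c.

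Among vesicle membrane proteins and synapsins, 7 of 10 rose and 1 fell, where 21.3% and 23.4% of all tested genes did. The shares were 31.9% and 19.9% among tested genes with a mean of at least 5 CPM. Syp (synaptophysin), a major vesicle membrane protein that binds synaptobrevin, had 1331, 1424 and 1424 CPM in the inputs and 1454, 1864 and 1837 in the IPs (log2 fold change 0.30, adjusted p = 0.027). IP replicate 1 was just above the inputs. This call was lost when any library other than IP replicate 1 was left out (adjusted p = 0.052 to 0.089), and 16.8% of the exonic bases of Syp overlap a gene on the opposite strand. Its relative Synpr rose more, from 80.1 ± 9.79 to 137 ± 9.32 CPM (0.78, adjusted p = 0.00015). Of the synaptogyrins, Syngr3 rose from 58.5 ± 4.39 to 122 ± 12.2 CPM (1.06, adjusted p = 1.4e-05) and Syngr1 from 191 ± 8.90 to 246 ± 41.3 (0.37, adjusted p = 0.02). The Syngr1 call was lost without input replicate 1 (adjusted p = 0.056), input replicate 3 (adjusted p = 0.062) or IP replicate 3 (adjusted p = 0.068).

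Synapsins tether vesicles of the reserve pool. Syn1 rose from 654 ± 62.3 to 866 ± 51.1 CPM (log2 fold change 0.40, adjusted p = 0.0035) and Syn3 from 82.1 ± 4.55 to 102 ± 5.47 (0.31, adjusted p = 0.017), while Syn2 had 409 ± 18.1 and 443 ± 35.5 CPM (0.12, adjusted p = 0.31). The Syn3 call was lost without input replicate 1 (adjusted p = 0.05), input replicate 2 (adjusted p = 0.086) or IP replicate 2 (adjusted p = 0.052), and 14.1% of its exonic bases overlap Timp3, which lies within it on the opposite strand.

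The 3 SV2 genes, which encode transporter-like vesicle proteins, differed in their calls. Sv2c, which in the brain is best known from the basal ganglia, had 34.6, 33.9 and 28.8 CPM in the inputs and 74.2, 89.4 and 88.7 in the IPs (log2 fold change 1.37, SE 0.12, adjusted p = 5.1e-06). Every IP was above 2-fold every input. Sv2b, the most abundant of the family in these cortex libraries, fell from 1002 ± 65.2 to 817 ± 56 CPM (-0.30, adjusted p = 0.015), and this call was lost without input replicate 3 (adjusted p = 0.079) or IP replicate 1 (adjusted p = 0.059). Sv2a, the most widely expressed member and the target of the drug levetiracetam, had 148 ± 19.4 and 159 ± 30.8 CPM (0.10, adjusted p = 0.60). Striatal markers rose beside Sv2c, among them Penk from 90.1 ± 11.7 to 492 ± 85.5 CPM and Drd2 from 9.87 ± 2.63 to 40.8 ± 8.65. Their part in the Sv2c result was not tested.

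Rab3 proteins are the small GTPases that mark vesicles for docking through rabphilin and RIM. Rab3a had 253, 271 and 231 CPM in the inputs and 425, 475 and 559 in the IPs (log2 fold change 0.95, SE 0.11, adjusted p = 3.6e-05). Rab3b rose from 70.1 ± 5.53 to 128 ± 15.6 CPM (0.87, adjusted p = 8.7e-05). Rab3c had 1405, 1300 and 1323 CPM in the inputs and 1531, 1260 and 1474 in the IPs (0.08, adjusted p = 0.48), with overlapping groups. Rab3d, better known from secretory cells outside the brain, fell from 6.88 ± 0.721 to 4.49 ± 0.541 CPM (-0.62, adjusted p = 0.046). It did not pass with the replicate block (adjusted p = 0.064) or when any library other than IP replicate 1 was left out (adjusted p = 0.064 to 0.14). The effector gene Rph3a (rabphilin) rose from 466 ± 55.1 to 634 ± 76.1 CPM (0.44, adjusted p = 0.0066).

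Of 12 active zone and priming genes, 0 rose and 5 fell. The shares were 21.3% and 23.4% of all tested genes, and 31.9% and 19.9% of those with a mean of at least 5 CPM. These 12 genes have 7.36 kb of exon or more. Among all tested genes with a length, 13.9% rose and 31.8% fell at 8 to 12 kb. At 12 kb or more 8.91% rose and 48.1% fell, and at 4 to 8 kb 20.1% and 21.3% did. With the length and GC offset (below), 3 of the 12 rose and 4 fell, where 21.6% and 19.9% of all genes did. The median log2 fold change of the 12 without the offset was -0.38. Pclo (Piccolo) and Bsn (Bassoon) encode the giant scaffold proteins that line the active zone. Pclo had 722, 750 and 808 CPM in the inputs and 253, 246 and 282 in the IPs (log2 fold change -1.54, SE 0.09, adjusted p = 1.9e-07). Bsn had 538, 639 and 631 CPM in the inputs and 211, 242 and 250 in the IPs (-1.36, SE 0.10, adjusted p = 1.3e-06). These were 2.92-fold and 2.57-fold decreases, the only ones past 2-fold in the set, and the lowest input of each gene was more than 2-fold its highest IP. On the genome (GRCm38, GENCODE M21), Bsn and Pclo are among the longest transcripts of the set, with 15.9 and 22.5 kb of exon.

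Of the 6 RIM and Munc13 genes, Rims1, Unc13a and Unc13b fell, and the others did not pass. The share that fell was 23.4% of all tested genes, and 19.9% of those with a mean of at least 5 CPM. Rims1, which links Rab3, Munc13 and calcium channels, had 125, 139 and 145 CPM in the inputs and 74.2, 97.6 and 88.3 in the IPs (log2 fold change -0.65, SE 0.11, adjusted p = 0.00069). Unc13a, the main Munc13 of glutamatergic terminals, had 141, 174 and 162 CPM and 84.7, 120 and 110 (-0.60, SE 0.13, adjusted p = 0.0028). For both genes all IPs lay below all inputs. Unc13b fell from 50.4 ± 6.40 to 35.3 ± 5.44 CPM (-0.51, adjusted p = 0.011), though not without input replicate 3 (adjusted p = 0.067). Unc13c, best known from cerebellar granule cells, had 44.5, 36.8 and 37.5 CPM in the inputs and 62.9, 50.9 and 39.6 in the IPs (0.37, adjusted p = 0.079), and passed as higher with the replicate block (adjusted p = 0.034) and without IP replicate 3 (adjusted p = 0.0093).

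Rims2 had 180 ± 3.68 CPM in the inputs and 152 ± 20.7 in the IPs (log2 fold change -0.24, adjusted p = 0.075), and passed as lower with the block (adjusted p = 0.037) and without IP replicate 1 (adjusted p = 0.011). Rims3, a short RIM without the domains that bind Rab3 and Munc13, had 8.79 ± 1.73 and 5.77 ± 1.14 CPM (-0.61, adjusted p = 0.053), and passed with the block (adjusted p = 0.039), without input replicate 1 (adjusted p = 0.04) and without IP replicate 3 (adjusted p = 0.026). The ELKS genes did not pass, with Erc1 at 119 ± 17.5 and 116 ± 15.6 CPM and Erc2 at 280 ± 10.3 and 244 ± 40. Without IP replicate 2, Erc2 passed as lower (-0.31, adjusted p = 0.029). Cadps and Cadps2, which prime dense-core vesicles, also did not pass (0.08, adjusted p = 0.48, and -0.16, adjusted p = 0.35).

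Of the 3 remaining genes, Sncb (beta-synuclein), a vesicle-associated relative of alpha-synuclein, had 73.7, 82.4 and 71.2 CPM in the inputs and 158, 186 and 212 in the IPs (log2 fold change 1.29, SE 0.12, adjusted p = 6.7e-06). Every IP was well above the inputs. Dnm1, the neuronal dynamin that pinches off retrieved vesicles, rose from 491 ± 12.1 to 674 ± 45.9 CPM (0.46, adjusted p = 0.00082). Its partner Amph (amphiphysin) had 139 ± 7.06 and 145 ± 3.49 CPM (0.06, adjusted p = 0.59).

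Pathway genes outside the set that are named for the highest CPM were picked without scaling to length. Because each kilobase of exon collects reads, levels of the genes of the set were compared with one another only per kilobase. On this scale Snap25 was far ahead with 2558 ± 224 CPM per kb in the inputs and 3573 ± 132 in IP, followed in IP by Vamp2 (927 ± 55.3), Cplx1 (594 ± 81.2) and Cplx2 (423 ± 45.1). In input, Vamp2 (508 ± 34.7) was likewise second, and Syp (267 ± 10.3), Cplx2 (261 ± 6.15) and Cplx1 (251 ± 1.34) followed within about one another's spread. The scaffolds Bsn and Pclo stood at 37.8 ± 3.51 and 33.8 ± 1.95 CPM per kb in the inputs and 14.7 ± 1.31 and 11.6 ± 0.860 in the IPs. Sncb, at 35.3 ± 2.74 in input, was thus at about the level of both scaffolds there, and at 86.5 ± 12.6 in IP was well above them. At the bottom lay Rab3d (1.64 ± 0.172 and 1.07 ± 0.129) and Rims3 (1.10 ± 0.217 and 0.723 ± 0.143).

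Paralogs were contrasted directly through the ratio of their reads within each library, which does not depend on the scaling of libraries. In 16 of 29 pairs the 3 IP ratios did not overlap the 3 input ratios, with the paralog gaining on the reference gene of its family in 10 and losing in 6. For single genes, the groups did not overlap at 56.1% of all tested genes. The share over other gene pairs was not computed, so the 16 pairs are not set apart from it. Each of these 16 had an exact two-sided permutation p of 0.1, the smallest that 3 against 3 libraries allow, and 0.18 adjusted over the 29 pairs, so none passed. Sv2c gained most on its reference. The log2 ratio of Sv2c to Sv2a reads was -1.87, -2.20 and -2.49 in the inputs and -0.74, -1.02 and -0.96 in IP, a difference of 1.28 (SE 0.20). Per kilobase, Sv2c made up 7.82% to 11.6% of the Sv2a and Sv2c signal in the inputs and 19.1% to 22.3% in the IPs. Unc13c gained on Unc13a (0.96, SE 0.36), Syt5 and Syt3 on Syt1 (0.92, SE 0.12, and 0.82, SE 0.18), Syngr3 on Syngr1 (0.70, SE 0.08) and Cplx1 on Cplx2 (0.54, SE 0.18). Per kilobase, Syngr3 passed from 40.4% to 43.7% of the synaptogyrin pair in input to 51.8% to 54.7% in the IPs.

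Losses against the reference were largest in the Rab3 family. The log2 ratio of Rab3d to Rab3a fell by 1.56 (SE 0.25) and that of Rab3c to Rab3a by 0.87 (SE 0.17). Per kilobase, Rab3c and Rab3a were about equal in input, where Rab3c made up 47.0% to 51.4% of the pair, and Rab3c made up 32.7% to 39.9% in the IPs. Syt13 lost against Syt1 (-0.58, SE 0.12), Vamp4 against Vamp2 (-0.43, SE 0.17), Sv2b against Sv2a (-0.38, SE 0.15) and Syt7 against Syt1 (-0.26, SE 0.07). The difference was -0.03 (SE 0.12) for Vamp1 to Vamp2, -0.08 (SE 0.16) for Rab3b to Rab3a, 0.09 (SE 0.16) for Unc13b to Unc13a and 0.05 (SE 0.18) for Rims3 to Rims1. With 3 libraries a group these values do not show that the paralogs moved alike. Doc2b against Doc2a gave a large mean difference (1.14, SE 0.51) with overlapping ratios.

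**Figure D3:**
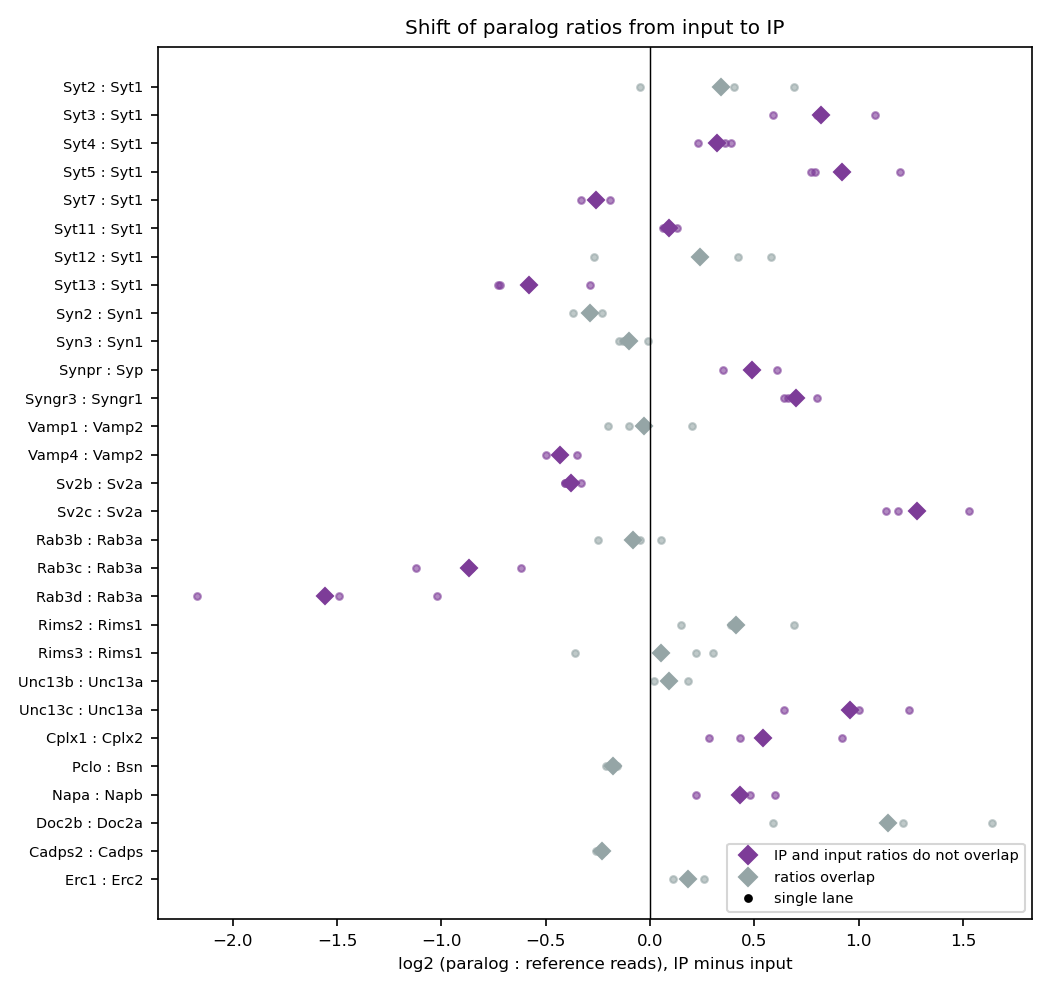
Difference (IP minus input) of the log2 ratio of reads of each paralog to the reference gene of its family, as the mean (diamond) and within each lane (dots). Purple marks the 16 pairs whose IP and input ratios do not overlap, from Rab3d to Rab3a (-1.56) to Sv2c to Sv2a (1.28).

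Transcript length moved with these results. Across the 52 genes, log2 fold change and log2 exonic length (GENCODE M21) had a Pearson r of -0.58 and a Spearman rho of -0.55, and across 14494 tested genes with a length -0.05 and -0.24. These correlations are across genes, which share libraries and are not replicates. Of the 14 genes under 4 kb, 12 rose and 1 fell (median 0.88), while of the 9 genes of 12 kb or more, 1 rose and 4 fell (median -0.06). Among all tested genes with a length, 30.3% rose and 13.6% fell under 4 kb, and 8.91% rose and 48.1% fell at 12 kb or more.

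With an offset that removed the trend of each library over all genes with exonic length and GC content, 31 of the 52 genes rose and 7 fell, where 21.6% and 19.9% of all genes in that fit did. A relation to length remained among the 52 genes (Pearson r -0.23, Spearman rho -0.24), against 0.08 and 0.04 over the 14494 genes. Of the genes called without the offset, 25 of those that rose and 6 of those that fell kept their call. Bsn and Pclo kept theirs, each at a log2 fold change of -0.99 (adjusted p = 1e-06 and 2.2e-06), as did Rims1 (-0.51, adjusted p = 0.002) and Unc13a (-0.35, adjusted p = 0.014). Sv2c stood at 1.59, Doc2b at 1.76, and Cplx1 and Sncb each at 0.85. Calls ended for Syn1 (0.17, adjusted p = 0.19), Doc2a (0.30, adjusted p = 0.20) and Sv2b (-0.11, adjusted p = 0.26), and Unc13b turned to 0.05 (adjusted p = 0.75). Genes without a call passed as higher, namely Stxbp5 (0.39, adjusted p = 0.0018), Cadps (0.45, adjusted p = 0.00045), Rab3c (0.42, adjusted p = 0.0023), Erc1 (0.34, adjusted p = 0.017), Unc13c (0.58, adjusted p = 0.012) and Syt1 (0.29, adjusted p = 0.015), and Stx1a passed as lower (-0.70, adjusted p = 0.0018). Of the 12 active zone genes, 3 rose and 4 fell in this fit.

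The offset also changed the paralog contrasts where lengths differ. Of the 16 pairs whose ratios did not overlap, 15 kept their sign, but 7 shrank to less than 50% of their size. Rab3c against the shorter Rab3a went from -0.87 to -0.17, Cplx1 against Cplx2 from 0.55 to 0.22, Napa against Napb from 0.44 to 0.14, and Syt5 against Syt1 from 0.93 to 0.39, as differences of log2 fold changes. Sv2c against Sv2a (1.27 and 1.58), Unc13c against Unc13a (0.97 and 0.93), Rab3d against Rab3a (-1.57 and -1.30) and Syt13 against Syt1 (-0.56 and -0.90) did not shrink in this way.

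**Figure D4:**
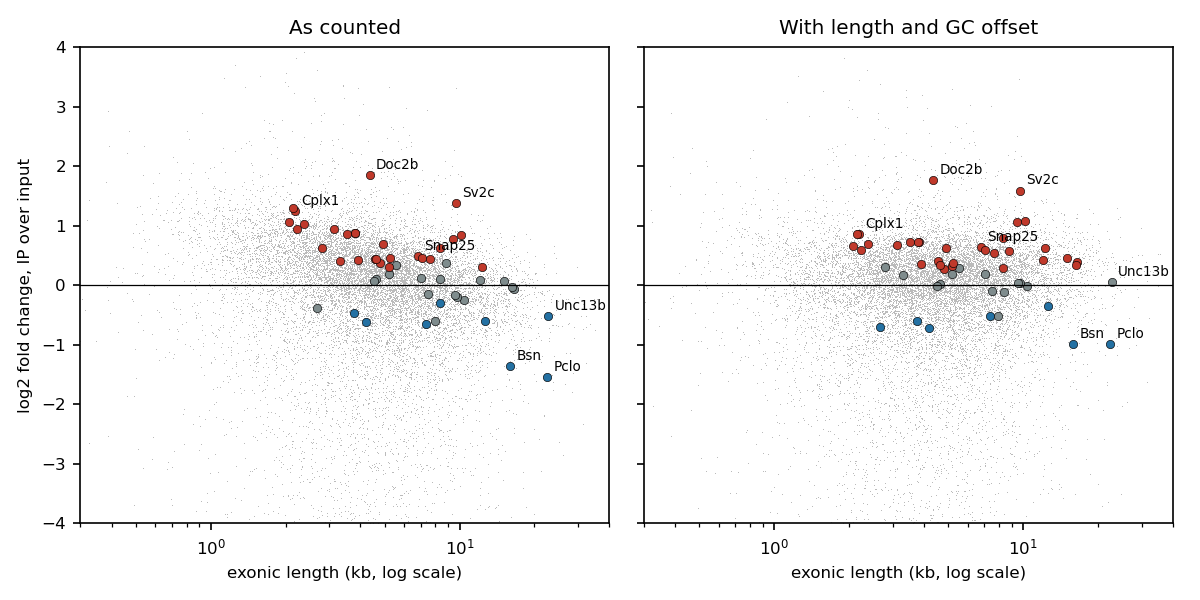
Log2 fold change (IP over input) against exonic length in kb on a log axis, without (left) and with (right) the length and GC offset. Small grey dots are the tested genes with a length whose values fall within the axes, from -4 to 4, large dots are the 52 genes, red where higher, blue where lower and grey where not passed, and Bsn and Pclo lie at -1.36 and -1.54 on the left and at -0.99 on the right.

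Other genes of the pathway, from lists of 89 symbols of which 84 were tested, had 31 higher, 18 lower and a median log2 fold change of 0.12, where 21.3% and 23.4% of all tested genes, and 31.9% and 19.9% of those with a mean of at least 5 CPM, were higher and lower. Without input replicate 2, 20 were higher, against 15.8% of all genes in that fit. Vesicle proteins rose in 9 of 15 cases and fell in 2. The one with the highest CPM, Scamp1 (secretory carrier membrane protein), rose from 531 ± 40.6 to 700 ± 24 CPM, and Tprgl (Mover) rose most, from 77.1 ± 2.31 to 124 ± 7.16. Syngr2, the synaptogyrin of non-neuronal cells, fell from 1.18 ± 0.375 to 0.0850 ± 0.0983 CPM (log2 fold change -3.80, adjusted p = 0.006), opposite to Syngr1 and Syngr3. Of 10 other synaptotagmins and calcium sensors, 3 rose, led by Syt6 (0.84), and Syt14 fell (-0.52). Syt16, with the highest mean CPM over all 6 libraries though not over the IPs, had 85.5 ± 7.32 and 76.9 ± 6.31 CPM (-0.15, adjusted p = 0.26). The call of Syt14 was lost with the length and GC offset (adjusted p = 0.19).

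Of 16 further SNARE genes and partners, 4 rose and 8 fell, against 21.3% and 23.4% of all tested genes. Napg (gamma-SNAP) rose most, from 245 ± 7.71 to 327 ± 19.4 CPM (0.41, adjusted p = 0.0017). Vamp8, a SNARE of endosomes and secretory cells outside the brain, fell most, from 3.41 ± 0.759 to 0.391 ± 0.190 CPM. Chosen after their values were seen, Snap23 and Vamp3, the widely expressed counterparts of Snap25 and Vamp2, fell from 12.8 ± 0.968 to 3.01 ± 0.534 CPM (-2.09, adjusted p = 1.6e-05) and from 52.1 ± 1.62 to 14.7 ± 0.664 (-1.82, adjusted p = 5.5e-07). The summed astrocyte markers fell from 3882 to 4478 CPM in input to 812 to 995 in IP beside them, and the part of that in the Snap23 and Vamp3 values was not tested.

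Of 16 other active zone genes, 5 rose and 3 fell, which is near the shares of 31.9% and 19.9% among tested genes with a mean of at least 5 CPM. Ptprd, a receptor phosphatase that organises presynaptic terminals, fell from 379 ± 33.6 to 197 ± 19.1 CPM (log2 fold change -0.95, adjusted p = 2e-05). Apba1 (Mint1), with the highest mean CPM over all 6 libraries though not over the inputs, rose (0.25, adjusted p = 0.034), and this call was lost without input replicate 1 (adjusted p = 0.08), input replicate 2 (adjusted p = 0.15), IP replicate 2 (adjusted p = 0.07) or IP replicate 3 (adjusted p = 0.082). Baiap3, a Munc13 relative at a low level, rose from 0.605 ± 0.352 to 2.11 ± 1.13 CPM (1.81, adjusted p = 0.028), but not without input replicate 2 (adjusted p = 0.11), input replicate 3 (adjusted p = 0.10) or IP replicate 1 (adjusted p = 0.13).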

How the data were processed

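The authors deposited raw counts of reads per gene symbol for 6 libraries, grouped by their titles into 3 input and 3 IP. Per the submitters' processing notes, STAR 2.0.0e, HTSeq and the mouse build mm10 were used. For HTSeq, the version, strand setting and annotation were not given in the sources used here. Library sizes exclude rows without a gene name. Reads outside annotated genes made up 21.1% to 23.5% of the reads listed for genes, no feature and several genes together in input and 13.1% to 13.7% in IP, and reads matching several genes 10.6% to 12.4% and 2.70% to 2.84%.

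From these counts, edgeR 4.0.16 (R 4.3.3) quasi-likelihood tests with TMM scaling, filterByExpr and a group term alone were fitted over 16506 genes, two-sided. Means are given ± SD (n = 3), and the SE of a log2 fold change comes from the test statistic. The fit was tested on simulated data, where it recovered fewer of the small changes than of the large ones. Paralog ratios added 0.5 reads to each count (alternative 5). Alternatives were DESeq2 1.42.0, RLE factors, total counts, no filter, a minimum of 1 CPM in 3 libraries, a block for the replicate number, a loess offset on length and GC (span 0.5, GENCODE M21) and leaving out each library. A floor of 3 reads lies between 0.0444 and 0.0796 CPM and covers counting error only. Libraries of a group differed by a chi-square of 22.0 to 65.2 per degree of freedom, so none was a copy.

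In the labels each replicate number goes with 1 sequencing lane, and same-numbered input and IP libraries had deviations correlating at 0.13, 0.086 and 0.047, against -0.083 to 0.0066 otherwise. Every input carries one library index and every IP another, so index and group cannot be told apart. The genes, role groups, pathway and marker lists and paralog pairs were chosen with earlier results of these data known. All 52 genes may be named. In each pathway list the called genes that moved most in each direction and the one with the highest mean CPM over the 6 libraries are named. Slc17a7, Gad1, Pvalb, Penk, Drd2, Snap23, Vamp3 and Cplx3 lie outside this rule and were chosen after their values were seen. One gene that this rule names is not reported here.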

Additional observations from a re-analysis of the deposited data

How the results depend on the processing

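Each of the 52 genes was refitted under 14 alternatives. Of the 35 genes past the test, 25 passed with the same sign in all 14, and 10 lost the call or turned in at least 1. With total gene counts the median log2 fold change of the set was 0.45, against 0.36, and the median of all tested genes moved by 0.09. Without 1 library at a time, the number of genes of the set that fell ran from 4 to 9 and that of other presynaptic genes that rose ran from 20 (without input replicate 2) to 32. With total counts the sign turned for Stxbp5 (0.03) and Erc1 (0.07), and without input replicate 3 for the same genes (0.03 and 0.11). Erc1 also turned without IP replicate 1 (0.07). Their lowest values without a library were -0.12 and -0.13. With the length and GC offset the sign turned for Stxbp5 (0.39), Unc13b (0.05), Erc1 (0.34), Erc2 (0.03), Cadps2 (0.04) and Amph (-0.01). With the offset and the replicate block these values were 0.39, 0.05, 0.34, 0.02, 0.05 and -0.01. Of the paralog differences, Rims3 to Rims1 turned without input replicate 1 (-0.05) and IP replicate 3 (-0.08), Vamp1 to Vamp2 without input replicate 2 (0.03) and IP replicate 1 (0.06), and Rab3b to Rab3a without IP replicate 2 (0.01). The other ends of these ranges were 0.16, -0.10 and -0.20. With the offset, an alternative chosen after seeing the data for these pairs, the sign turned for Syt11 to Syt1 (-0.11), Syn2 to Syn1 (0.02), Syn3 to Syn1 (0.46), Vamp1 to Vamp2 (0.36), Rab3b to Rab3a (0.14) and Rims3 to Rims1 (-0.01). The cause of the turns without a library was not tested. Taken within lanes, the ratio difference had 1 sign in all 3 lanes for 24 of 29 pairs, with a smallest possible sign-flip p of 0.25. The share over other gene pairs was not computed. Among the 52 genes, the replicate block changed the call of Stx1a, Syt11, Rims2, Rims3, Unc13c and Rab3d only.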

Other observations

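Of 27 genes of vesicle retrieval beyond Dnm1 and Amph, 10 rose, 4 fell and 13 did not pass (median log2 fold change 0.18, edgeR quasi-likelihood test), where 31.9% rose and 19.9% fell among all tested genes with a mean of at least 5 CPM. Synj1 (synaptojanin 1), which strips clathrin coats from vesicles and had the highest CPM of them, rose from 782 ± 27.7 to 935 ± 15.1 CPM (0.26, adjusted p = 0.014), but not without input replicate 2 (adjusted p = 0.087). Sh3gl3, an endophilin, rose most, from 36.0 ± 3.09 to 69.6 ± 15.8 CPM (0.95, adjusted p = 0.0004). Dnm2, the dynamin found in all tissues, fell from 18.6 ± 1.12 to 4.71 ± 0.879 CPM (-1.98, adjusted p = 1e-05), whereas its neuronal paralog Dnm1 rose (0.46, adjusted p = 0.00082).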
